A study of Mus musculus with 2 samples.

Results

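The machinery that makes microRNAs and uses them to silence messages was followed through 10 genes: Drosha, Dgcr8, Xpo5, Dicer1, Tarbp2, Ago1, Ago2, Ago3, Tnrc6a and Tnrc6b. They were chosen by name from known function, at a time when earlier results of these data were known. All 10 were found among the 31053 genes of the count tables. Single cells were taken from the back skin of 2 mice at postnatal day 53, a control and a miR-205 inducible animal, and each gave 1 library. The labels give both mice as C57BL/6, and both carried a K14-H2BGFP allele, a nuclear green reporter under the keratin 14 promoter that was used for sorting. The inducible mouse carried a tetracycline-responsive miR-205 transgene switched on by rtTA, a doxycycline-dependent activator under the keratin 14 promoter, in a line founded by injection into FVB mice. It received doxycycline chow for 4 days from postnatal day 49. The protocol states that both mice received the drug, although the sample characteristics name the control as untreated. Sorting mixed epidermal, hair follicle and dermal cells in parts of 3, 5 and 2.

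A microRNA begins as a long nuclear transcript that Drosha and its RNA-binding partner Dgcr8 trim to a hairpin. Exportin 5 (Xpo5) carries the hairpin to the cytoplasm, where Dicer1, with Tarbp2, removes the loop, and 1 strand of the duplex is kept by an Argonaute protein (Ago1, Ago2, Ago3). Argonaute pairs the first bases of the microRNA, the seed, with messages, and the GW182 proteins Tnrc6a and Tnrc6b call in the enzymes that shorten their poly(A) tails. In skin, loss of Dicer1 or Dgcr8 from the epithelium is known to disturb hair follicle growth. miR-205 is an abundant microRNA of the epithelial layers.

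The molecule that these proteins were given to handle is shown first, because each step leaves its mark on it. In the hairpin, from chr1:193507463-193507530 on the minus strand (RefSeq, GRCm38.p6), capitals mark the 2 mature arms that remain after Dicer1 cuts, and the 14 bases between them are lost with the loop. In the mature 5′ arm, capitals mark the seed, bases 2 to 8.
mir-205 hairpin: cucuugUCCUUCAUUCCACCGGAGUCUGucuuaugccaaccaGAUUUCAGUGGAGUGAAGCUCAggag
mmu-miR-205-5p: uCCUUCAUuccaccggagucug
These libraries count polyadenylated messages from their 3′ ends, so neither the mature strand nor its loading into Argonaute was measured, and no value below checks the induction itself.

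The letters ATGAAGG, the complement of that seed, were searched for on the message strand in the longest annotated 3′ UTR of each gene (transcripts of the older build NCBIM37). They occurred in 4 of the 10 members, Dgcr8, Tarbp2, Ago3 and Tnrc6b, and in 10.6% of the 19028 genes with a 3′ UTR. The same letters followed by A, ATGAAGGA, occurred in Tarbp2 and Ago3, and in 3.82% of all genes. Length matters for such a count. The 3′ UTR of Ago3 spans 12742 bases and that of Tnrc6b 11610, and 57.9% and 51.7% of genes with 3′ UTRs of like length (up to 20% shorter or 25% longer) held the letters. For Dgcr8 (1574 bases) and Tarbp2 (1221 bases) the matching shares were 13.5% and 10.4%. The annotated 3′ UTRs of Xpo5 and Drosha were only 28 and 168 bases long. The matches are printed below with their surroundings, in capitals where they equal the searched letters, since they allow the values of these members to be read beside them.
Dgcr8, 3′ UTR bases 295 to 301: ggaccgtttttATGAAGGttttcattaatt
Tarbp2, 3′ UTR bases 647 to 653: tcaaagcaagtATGAAGGagttgggagatg
Ago3, 3′ UTR bases 1604 to 1610: agatggcaatgATGAAGGaaattaggactt
Ago3, 3′ UTR bases 3245 to 3251: ggacataaaacATGAAGGtaacgaacagcg
Tnrc6b, 3′ UTR bases 888 to 894: gctgcctcgagATGAAGGgtgcttttcagt
A match is a description of these letters and does not show binding.

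The filter kept 3936 control cells and 3628 induced cells, with medians of 12198.5 and 11752.5 unique molecular identifiers (UMIs, each standing for 1 captured message), and 10 and 6 of the kept cells carried a barcode also present in the other library. Clustering without the members and the other pathway genes gave 26 clusters. From these, 18 populations of at least 100 cells were used, of which 11 were named by markers and 7 kept a number. Cells resembling the stem cells of the hair follicle (HF-SC-like) numbered 357 and 350 in the control and inducible libraries, interfollicular epidermis (IFE) basal-like cells 719 and 463, and hair germ-like cells 48 and 98. Levels are given as CPM, the UMIs of a gene scaled to 1000000 UMIs of the population, and they are compared across populations for 1 gene at a time, since capture from the 3′ end differs between genes. With 1 mouse per group no test of induction was possible. Intervals are exact at 95% and cover counting error only.

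All 10 genes were detected in both libraries, and their summed level in all kept cells was 273 CPM in the control and 274 CPM in the inducible library. Across populations the sum ranged 3.23-fold. It was highest in T cell-like cells, at 555 CPM in the control and 676 CPM in the inducible library, followed by dermal papilla-like cells at 504 and 509 CPM. It was lowest in sebaceous gland-like cells, at 191 and 190 CPM. HF-SC-like cells lay near the lower end, at 261 and 238 CPM, and IFE basal-like cells at 250 and 246 CPM. In 7 of the 17 steps down this order the libraries did not overlap. The populations were built from the same cells, so these levels are a description and carry no test.

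**Figure D1:**
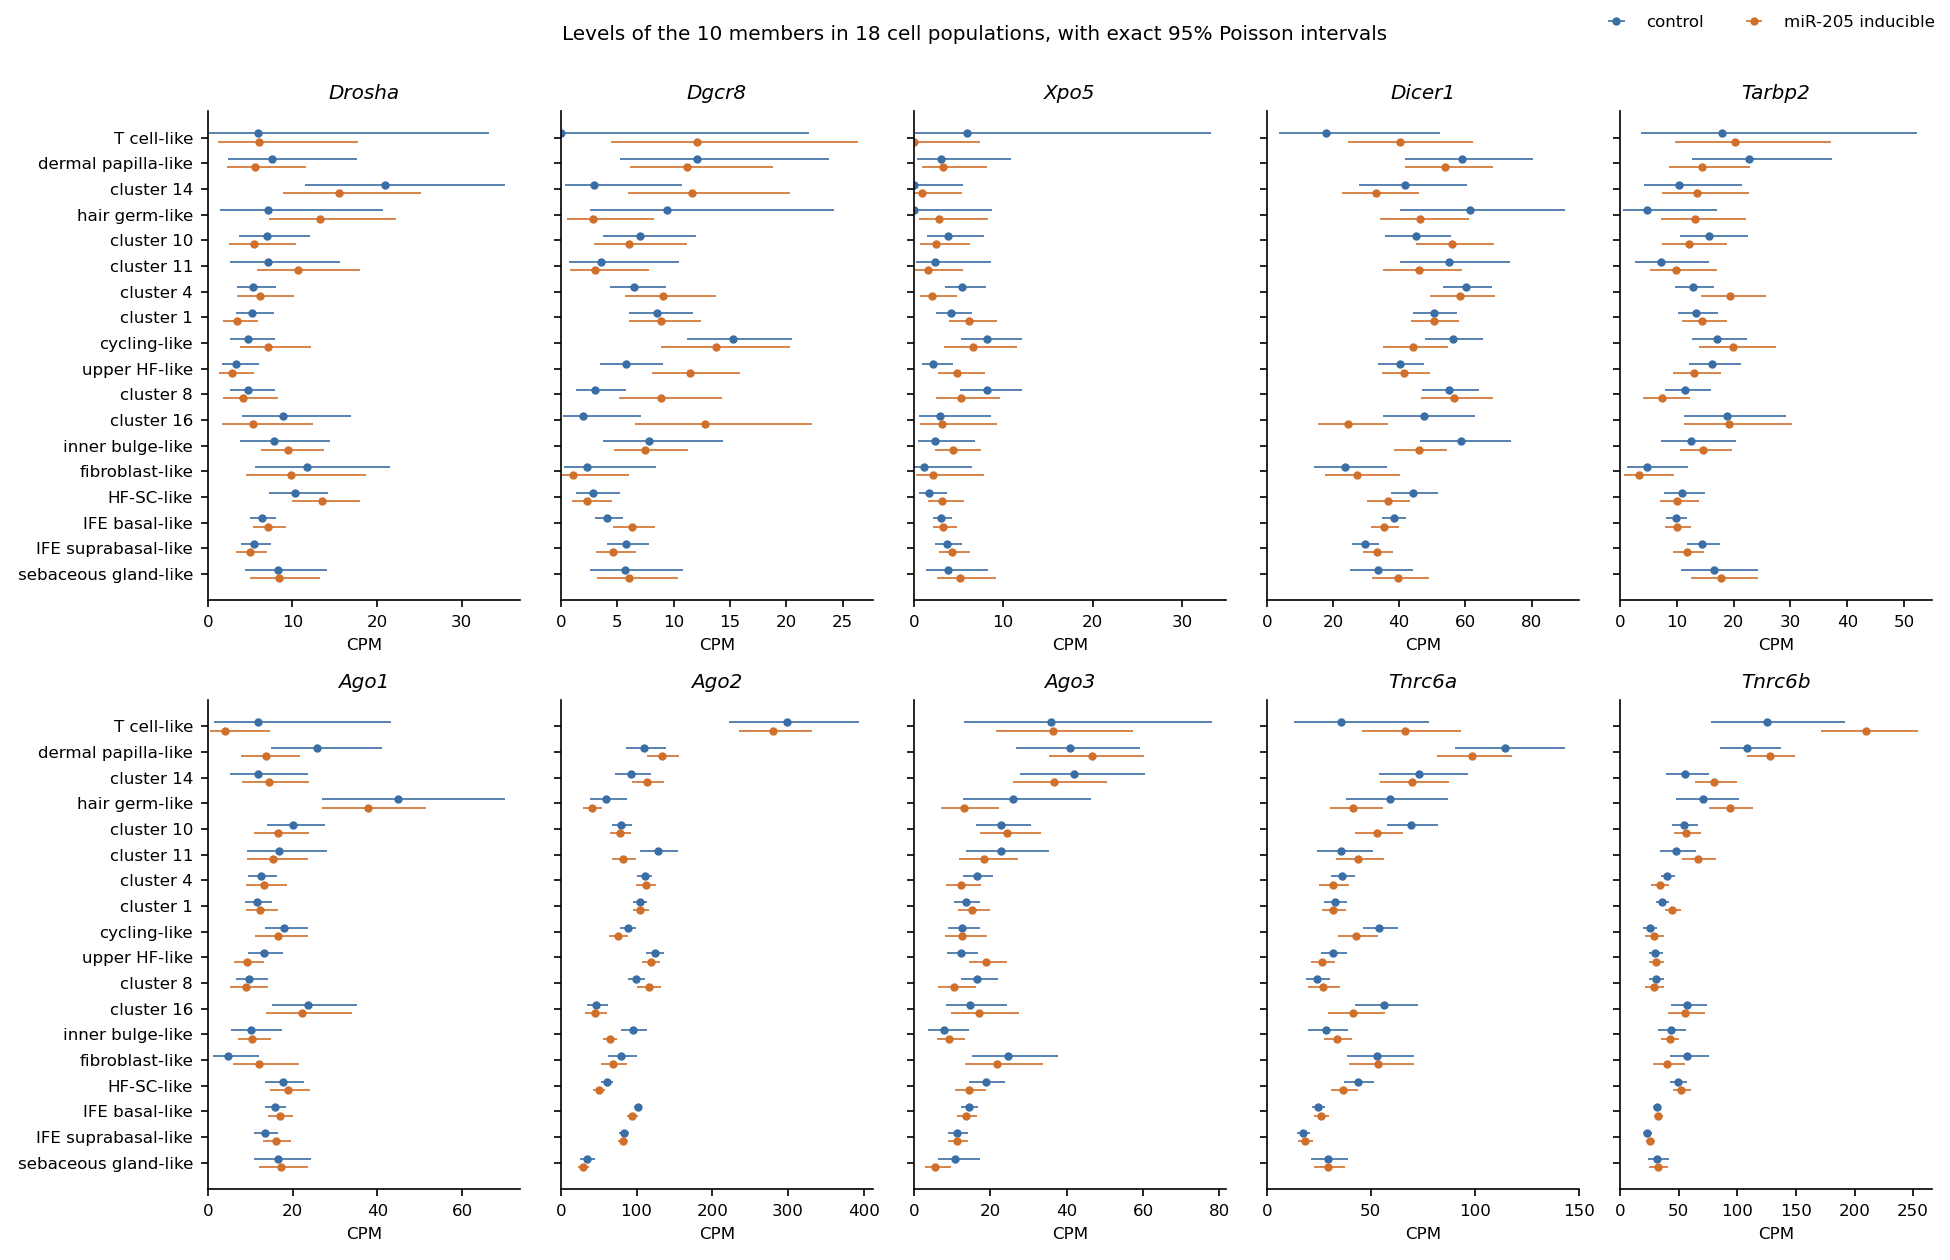
CPM of each of the 10 members (x axes) in 18 populations (rows, from the highest summed level at the top to the lowest), with control in blue, miR-205 inducible in orange and bars for exact 95% Poisson intervals. By CPM, Ago2 stands apart in T cell-like cells (298 and 281 CPM) and Tnrc6a in dermal papilla-like cells. Ago1 is highest in hair germ-like cells, and Dicer1 varies least.

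Among the nuclear genes, Drosha (ENSMUSG00000022191, chr15:12824804-12935291) was highest in cluster 14, at 20.9 CPM in the control (95% interval 11.4 to 35.1) and 15.5 CPM in the inducible library (8.86 to 25.2). Cluster 14 was led by Fmod and held markers of several classes together, so it was left unnamed. Drosha was lowest in upper hair follicle-like (upper HF-like) cells, at 3.37 and 2.88 CPM, and second in the order stood HF-SC-like cells at 10.3 and 13.5 CPM. Its partner Dgcr8 (ENSMUSG00000022718, chr16:18253948-18289251) took another order. It was highest in cycling-like cells, at 15.3 CPM (11.2 to 20.5) and 13.8 CPM (8.92 to 20.3), above dermal papilla-like cells in both libraries. HF-SC-like cells, at 2.85 and 2.30 CPM from 10 and 8 UMIs, stood next to last. The partners in this nuclear complex thus had their highest levels in different populations. The HF-SC-like rank of 2 for Drosha was not distinct, since the libraries overlapped with fibroblast-like cells, next at 11.7 and 9.82 CPM. The HF-SC-like rank of 17 for Dgcr8 rested on 10 and 8 UMIs.

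Xpo5, the export factor (ENSMUSG00000067150, chr17:46202811-46243598), was the most sparsely counted member, with 191 control and 173 induced UMIs in all kept cells. It was also highest in cycling-like cells, at 8.17 CPM (5.23 to 12.2) and 6.62 CPM (3.42 to 11.6). In all 17 neighbouring steps the libraries overlapped, so no order among its populations is drawn. In cluster 14 and hair germ-like cells the control library held 0 Xpo5 UMIs.

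Dicer1, the enzyme that cuts the hairpin (ENSMUSG00000041415, chr12:104687740-104751968), had the narrowest spread, 2.34-fold between the highest and lowest population. It reached 60.2 CPM (53.3 to 67.9) and 58.5 CPM (49.3 to 69.0) in cluster 4, an epithelial cluster led by Itih5, Ntrk2 and Fst. In fibroblast-like cells it was at 23.5 and 27.3 CPM. HF-SC-like cells held 44.2 and 36.5 CPM, IFE basal-like cells 38.4 and 35.4 CPM, and IFE suprabasal-like cells 29.6 and 33.3 CPM. Its partner Tarbp2 (ENSMUSG00000023051, chr15:102516077-102523676) was also lowest in fibroblast-like cells, at 4.69 and 3.27 CPM from 4 and 3 UMIs. The populations at its upper end, T cell-like cells, cluster 16, dermal papilla-like, cycling-like and sebaceous gland-like cells, overlapped between libraries.

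Ago2, the Argonaute that can itself cut a paired message (ENSMUSG00000036698, chr15:73101625-73184947), had the steepest gradient of the Argonautes, 9.15-fold. It stood at 298 CPM (221 to 393) and 281 CPM (236 to 331) in T cell-like cells, and at 34.4 CPM (25.8 to 44.8) and 28.9 CPM (22.1 to 37.0) in sebaceous gland-like cells. Ago2 was at 124 and 119 CPM in upper HF-like cells and at 102 and 94.2 CPM in IFE basal-like cells. It was at 60.8 and 49.97 CPM in HF-SC-like cells, 59.1 and 40.6 CPM in hair germ-like cells, and 46.4 and 44.7 CPM in cluster 16. Of the 2 IFE basal-like clusters, cluster 0 held 108 and 104 CPM and cluster 12 held 66.4 and 55.02 CPM, with intervals that overlapped those of HF-SC-like and hair germ-like cells in both libraries.

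Ago1 (ENSMUSG00000041530, chr4:126435012-126468707) and Ago3 (ENSMUSG00000028842, chr4:126326994-126431670) are neighbours on chromosome 4, yet their levels did not follow each other. Ago1 was highest in hair germ-like cells, at 44.9 CPM (27.0 to 70.1) and 37.8 CPM (27.0 to 51.4), above the next population, cluster 16, at 23.7 and 22.3 CPM. HF-SC-like cells held 17.7 and 19.0 CPM of Ago1, and IFE basal-like cells 15.9 and 17.0 CPM. Both pooled values hide differences between clusters. In IFE basal-like cells Ago1 was at 33.8 and 31.9 CPM in cluster 12 and at 12.9 and 13.4 CPM in cluster 0. In HF-SC-like cells it was at 37.1 and 34.5 CPM in cluster 20, from 8 and 17 UMIs, and at 16.4 and 16.4 CPM in cluster 2. The intervals of clusters 12 and 20 overlapped those of hair germ-like cells. Ago3 was instead highest in dermal papilla-like cells, at 40.8 CPM (26.9 to 59.3) and 46.5 CPM (35.3 to 60.2), and in cluster 14, at 41.8 and 36.8 CPM. It was at 10.8 and 5.59 CPM in sebaceous gland-like cells. Hair germ-like cells thus held the highest Ago1 level of the 18 populations, while their Ago2 level ranked 16 of 18.

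The GW182 genes shared their lower end. Tnrc6a (ENSMUSG00000052707, chr7:123031101-123195296) was highest in dermal papilla-like cells, at 115 CPM (90.4 to 144) and 98.7 CPM (82.0 to 118), and lowest in IFE suprabasal-like cells, at 17.6 and 18.3 CPM. Tnrc6b (ENSMUSG00000047888, chr15:80711313-80941086) was highest in T cell-like cells, at 125 CPM (77.6 to 192) and 210 CPM (172 to 254), and in dermal papilla-like cells, at 109 and 128 CPM. It was lowest in IFE suprabasal-like cells as well, at 23.4 and 25.6 CPM. From basal to suprabasal epidermis the pooled values of both genes were lower in both libraries. The larger IFE basal-like cluster, cluster 0, had intervals that overlapped those of suprabasal clusters 6 and 9 for both genes in both libraries. Control Tnrc6a, for example, had intervals of 19.4 to 25.4 in cluster 0, 13.9 to 22.6 in cluster 6 and 13.1 to 22.4 in cluster 9. By CPM, HF-SC-like cells held more of each than IFE basal-like cells did. Tnrc6a was at 43.9 and 36.8 against 24.7 and 26.2 CPM, and Tnrc6b at 49.6 and 52.3 against 31.3 and 32.5 CPM. Counted per cell, this contrast was lost. Tnrc6b was then at 0.487 and 0.52 UMIs in HF-SC-like cells against 0.494 and 0.533 in the deeper IFE basal-like cells. Tnrc6a was at 0.431 and 0.366 against 0.389 and 0.430, higher in the control and lower in the inducible library. The pooled IFE basal-like values come from 2 clusters that differed. Cluster 0, with 586 and 353 cells, held 22.2 and 22.6 CPM of Tnrc6a and 28.8 and 28.1 CPM of Tnrc6b. Cluster 12, with 133 and 110 cells, held 39.5 and 41.4 CPM of Tnrc6a and 46.4 and 50.9 CPM of Tnrc6b, and its intervals overlapped those of the larger HF-SC-like cluster for both genes. The contrast by CPM with HF-SC-like cells therefore lay in cluster 0.

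Depth differed beside these levels. T cell-like and dermal papilla-like cells, at the top by CPM, were the shallowest populations, with median depths of 4451 and 5064 UMIs and of 4493 and 5486.5 UMIs. Dermal papilla-like cells also held Malat1, a nuclear noncoding RNA, at 142733 and 124196 CPM, against 29989 and 29464 CPM in HF-SC-like cells. T cell-like cells did not share this, with Malat1 at 30869 and 31288 CPM. Inner bulge-like cells ranked 4 of 18 for Malat1, 16 for depth and 13 for the summed level. Counted per cell, the order changed. Cycling-like cells, the deepest population at 21018 and 22758.5 median UMIs, held the most member UMIs, 5.95 and 5.65 per cell. T cell-like cells held 2.51 and 3.81 per cell and ranked 12 of 18, and dermal papilla-like cells held 2.37 and 2.86 and ranked 16. Inner bulge-like cells held the fewest, 2.08 and 1.88. The part of depth and of nuclear RNA in the CPM order was not tested. Ago2 in T cell-like cells was 1.35 and 1.58 UMIs per cell, against 0.60 and 0.50 in HF-SC-like cells. By this count T cell-like cells ranked 6 of 18 for Ago2, and upper HF-like cells ranked 1, at 1.68 and 1.79. Tnrc6a, highest by CPM in dermal papilla-like cells, was at 0.54 and 0.55 UMIs per cell there. That was below cycling-like cells at 1.07 and 0.91, cluster 10 at 0.85 and 0.78, and fibroblast-like cells at 0.75 and 0.78.

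**Figure D2:**
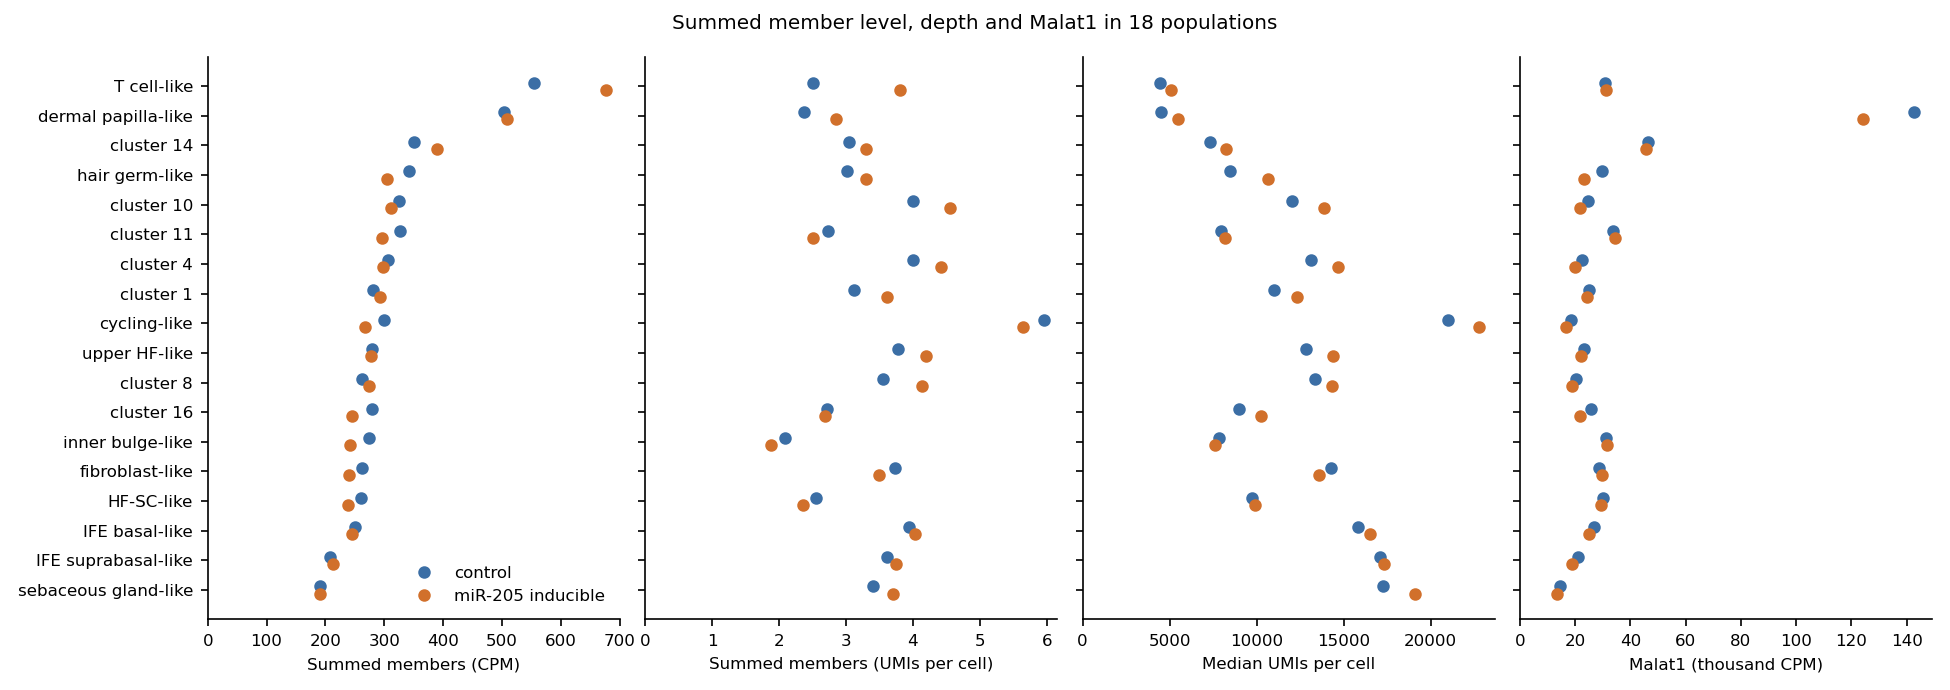
Summed CPM of the 10 members, their summed UMIs per cell, median UMIs per cell and Malat1 level (x axes) in the same 18 populations (rows) for control (blue) and miR-205 inducible (orange) libraries. The populations highest by CPM, T cell-like and dermal papilla-like, are the shallowest, and cycling-like cells lead per cell with 5.95 and 5.65 UMIs.

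The 5 genes whose level followed the summed members most closely were Rapgef6, an exchange factor for Rap GTPases (Pearson r = 0.90), Uhrf2, a chromatin-binding ubiquitin ligase (r = 0.90), Herc1, a giant ubiquitin ligase (r = 0.89), Tacc1, a centrosome-associated protein (r = 0.88), and Nsd3, a histone methyltransferase (r = 0.88). These are correlations of log2(CPM + 1) over 36 points, 18 populations in each of 2 libraries, among 6978 genes. The points share libraries, depth and cell types, so no p is given.

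The comparison of the libraries asks whether the machinery was at another level after 4 days of miR-205 induction. In all kept cells the member values were close to each other: the median log2 ratio, induced over control, was 0.01, against 0.10 over the 14484 genes with at least 20 UMIs. None of the 10 members passed a log2 ratio of 0.5 in either direction, where 22.1% of all genes and 11.1% of genes within the members' range of UMIs did. Drosha was at 6.43 and 7.08 CPM (log2 ratio 0.14, 95% interval -0.09 to 0.37) and Dgcr8 at 5.99 and 7.08 CPM (0.24, 0.01 to 0.47). Xpo5, Tarbp2, Ago1, Ago3 and Tnrc6a lay between -0.03 and 0.03. Dicer1 was at 44.0 and 41.7 CPM (-0.08, -0.17 to 0.01).

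The members with intervals farthest from 0 were Ago2 and Tnrc6b, in opposite directions. Ago2 was at 97.6 CPM in the control and 90.9 CPM in the inducible library, a log2 ratio of -0.10 (-0.16 to -0.04). It was lower in the inducible library in 13 of 18 populations, and below the median of all genes in 14. With under 5% mitochondrial UMIs, however, the Ago2 ratio in all kept cells was -0.01. Tnrc6b was at 36.7 and 44.4 CPM, a log2 ratio of 0.28 (0.18 to 0.37). It was higher in 13 of 18 populations, but above the median of all genes in only 11. The populations ranked 1 to 3 for Tnrc6b took larger shares of the inducible library. Dermal papilla-like cells made up 3.58% of control and 6.12% of induced kept cells, T cell-like cells 0.940% and 2.43%, and hair germ-like cells 1.22% and 2.70%. Clusters 14 and 11, ranked 4 and 5, also took larger shares. Clusters 16 and 10, ranked 6 and 7, took smaller ones, at 2.64% and 2.37% and at 3.81% and 3.09%. With the same mix of populations in both libraries, an alternative added after seeing the data, the Tnrc6b ratio was 0.17 and that of Ago2 remained -0.10. Sorting set the parts of epidermal, follicular and dermal cells, so these shares are not those of the skin. The 4 members holding the seed-matching letters lay at 0.24 (Dgcr8), 0.01 (Tarbp2), -0.03 (Ago3) and 0.28 (Tnrc6b), and the 6 without them between -0.10 and 0.14, so the ranges overlapped.

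**Figure D3:**
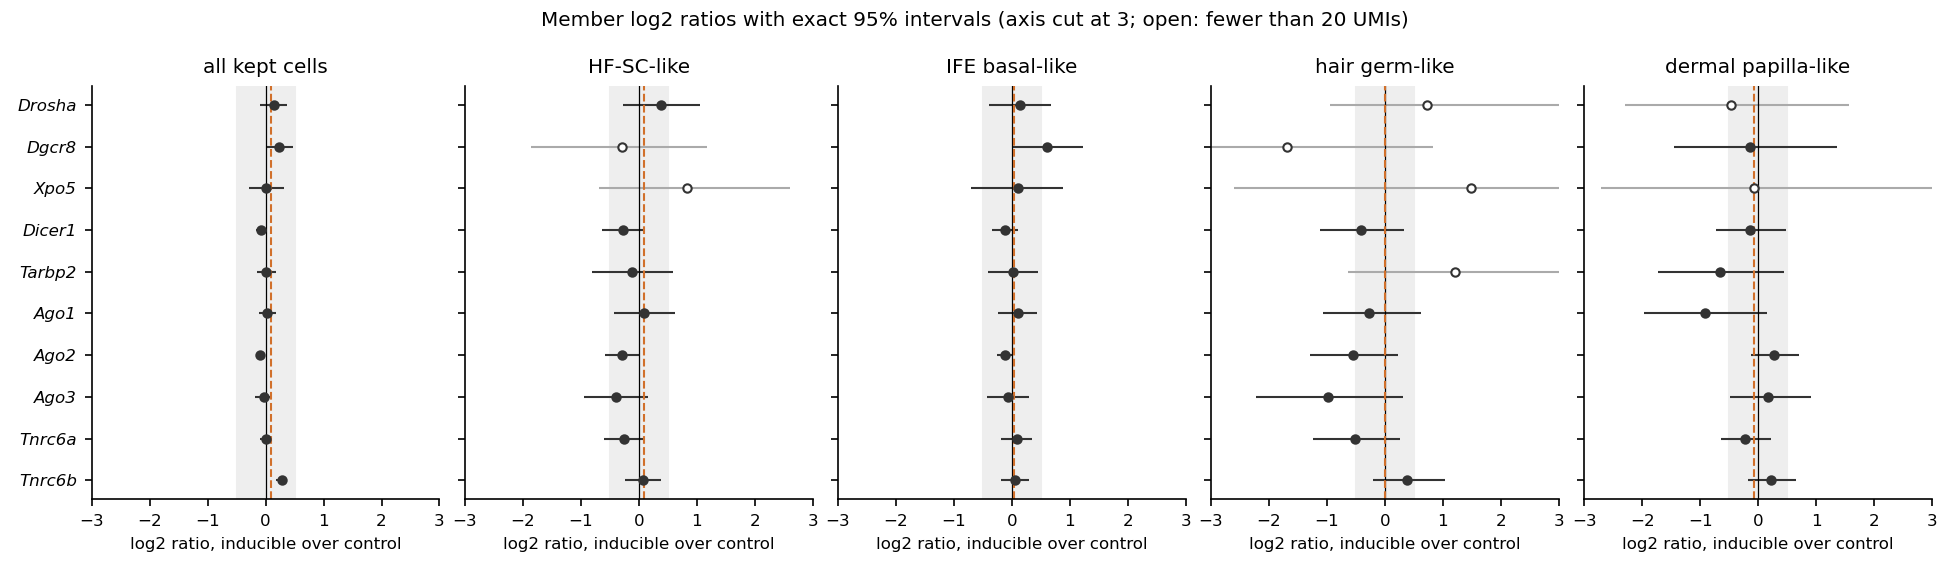
Log2 ratios of induced over control CPM (x axes) for the 10 members (rows) in all kept cells and 4 populations, with exact 95% intervals that cover counting error only. The grey band spans -0.5 to 0.5, the dashed line is the median of all tested genes, and open points rest on fewer than 20 UMIs over both libraries. In all kept cells every member lies within the band, and in hair germ-like cells the intervals widen and all hold 0.

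HF-SC-like cells are the compartment in which the study follows miR-205, and they express the keratin that drives the transgene, with Krt14 at 9486 and 8317 CPM. Here 8 of the 10 members reached 20 UMIs, and Dgcr8 and Xpo5 did not. Their median log2 ratio was -0.18, against 0.09 over 9580 genes, and 5 of the 8 were lower in the inducible library, as were 40.2% of all genes. No member passed 0.5, where 25.9% of all genes did. Ago2 was at 60.8 and 49.97 CPM (-0.28, -0.58 to 0.01), Ago3 at 18.8 and 14.4 CPM (-0.39, -0.95 to 0.16), Dicer1 at 44.2 and 36.5 CPM (-0.28, -0.63 to 0.07) and Tnrc6a at 43.9 and 36.8 CPM (-0.26, -0.61 to 0.09). Tarbp2 was at 10.8 and 10.1 CPM (-0.11, -0.81 to 0.59). These 5 members were the ones on the lower side, and each interval held 0. Tnrc6b was at 49.6 and 52.3 CPM (0.07, -0.23 to 0.38) and Ago1 at 17.7 and 19.0 CPM (0.10, -0.42 to 0.62). The signs of these values near 0 were not stable: over the alternatives Tnrc6b ranged from -0.56 to 0.21 and Ago1 from -0.14 to 0.91. On the lower side Tarbp2 ranged from -0.55 to 0.51 and Tnrc6a from -0.53 to 0.04, while Ago2, Ago3 and Dicer1 stayed below 0. Drosha was at 10.3 and 13.5 CPM (0.39, -0.26 to 1.06). In the larger of the 2 HF-SC-like clusters, with 327 and 289 cells, Ago2 was at 61.7 and 50.9 CPM and Tnrc6a at 41.6 and 34.8 CPM. The median depended on the choice of cells. It was -0.49, with 5 of 8 members past 0.5 (31.4% of all genes), in the 111 and 91 cells under 5% mitochondrial UMIs, and 0.02 when cells were classed by marker UMIs without clustering.

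In hair germ-like cells, the progenitors next to the bulge, 6 members reached 20 UMIs and 5 of them were lower in the inducible library, with a median log2 ratio of -0.47 against 0.00 over 6443 genes. In this population 3 members passed 0.5, Ago2 (59.1 and 40.6 CPM, -0.55, -1.28 to 0.23), Ago3 (26.0 and 13.2 CPM, -0.99, -2.22 to 0.31) and Tnrc6a (59.1 and 41.5 CPM, -0.52, -1.25 to 0.26), where 34.6% of all genes did. Tnrc6b was on the higher side, at 70.9 and 93.5 CPM (0.38, -0.20 to 1.04). The control had only 48 of these cells, and each of these intervals held 0. When the cluster next in hair germ markers, cluster 10, was added after seeing the data, 9 members were tested and the median was -0.12. Tnrc6a was then at 67.4 and 48.5 CPM (-0.47, -0.82 to -0.13). Cluster 10 held 128 of the 153 control and 87 of the 131 induced UMIs behind this value. It was left unnamed: Tagln and Acta2 led it, and 4 smooth muscle or pericyte markers were raised beside 3 of hair germ. The 20-UMI level was decisive in hair germ-like cells: with at least 100 UMIs only Tnrc6b was left.

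IFE basal-like cells had the highest Krt14 of the named epithelial populations, at 18388 and 16938 CPM, and the deepest counts of the members. All 10 were tested, with a median of 0.07 against 0.03 over 10333 genes. Dgcr8 alone passed 0.5, at 4.14 CPM (3.04 to 5.51) and 6.32 CPM (4.66 to 8.38), a log2 ratio of 0.61 with an interval that reached down to 0.00, where 16.4% of all genes passed. The other members lay between -0.12 and 0.15, with Ago2 at 102 and 94.2 CPM (-0.11, -0.25 to 0.02), Dicer1 at 38.4 and 35.4 CPM (-0.12, -0.34 to 0.11) and Tnrc6b at 31.3 and 32.5 CPM (0.06, -0.18 to 0.30). Tnrc6a was at 24.7 and 26.2 CPM (0.09, -0.18 to 0.36).

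Dermal papilla cells, the dermal cluster that signals to the follicle, are mesenchymal and not keratinocytes. Dermal papilla-like cells, with Krt14 at 1028 and 419 CPM, had a member median of -0.14 against -0.06 over 7010 genes. Of 8 members tested, Ago1 (25.7 and 13.6 CPM, -0.91, -1.97 to 0.15) and Tarbp2 (22.7 and 14.4 CPM, -0.66, -1.72 to 0.44) passed 0.5, where 30.1% of all genes did. Ago2, at 110 and 134 CPM (0.28, -0.12 to 0.70), was on the higher side.

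T cell-like cells, with Krt14 at 209 and 204 CPM, gave the farthest Tnrc6b value, 125 and 210 CPM (0.72, 0.06 to 1.496), and 50.3% of all genes passed 0.5 there. Their makeup differed between libraries. The control cells lay mostly in cluster 23, led by Trdc and Tcrg-C1 of the gamma delta receptor, with 28 of 37 cells. The induced cells lay mostly in cluster 22, led by Gzmb, Icos and Trac, with 60 of 88. Within cluster 22 Tnrc6b was at 220 CPM (101 to 418, from 9 cells) and 244 CPM (195 to 301), and within cluster 23 at 94.7 CPM (48.9 to 165) and 127 CPM (74.99 to 200). The Tnrc6b values were higher in cluster 22 than in cluster 23 in both libraries, but the intervals overlapped, both between the clusters of each library and between the libraries within each cluster. Ago2 did not separate the clusters in this way, at 318 and 252 CPM in cluster 22 and 292 and 351 CPM in cluster 23.

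Over the 18 populations and 10 members, 151 values rested on at least 20 UMIs, and 28 of them (18.5%) passed 0.5, against 24.1% over all genes and populations. The values named here were picked after they were seen. Ago2 was at 95.6 and 64.6 CPM in inner bulge-like cells (-0.57, -0.90 to -0.23), the inner layer beside the old hair, and at 128 and 81.9 CPM in cluster 11 (-0.64, -1.04 to -0.24), led by Pthlh and Bdnf. The shares of all genes past 0.5 were 22.1% and 25.6% there. Krt14 was at 339 and 227 CPM in inner bulge-like cells, which made up 4.27% of control and 10.5% of induced cells. Dgcr8 was at 5.81 and 11.5 CPM in upper HF-like cells (0.97, 0.14 to 1.87), and at 3.05 and 8.92 CPM in cluster 8 (1.51, 0.30 to 2.90). Dicer1 was at 47.4 and 24.5 CPM in cluster 16 (-0.94, -1.74 to -0.21), a cluster led by Sostdc1 and the immediate early genes Fos and Atf3. Beside these and Tnrc6b in T cell-like cells, the values of at least 20 UMIs whose intervals did not hold 0 were Tarbp2 in cluster 4, at 12.8 and 19.4 CPM (0.60, 0.01 to 1.18), and Ago3 in upper HF-like cells, at 12.2 and 18.9 CPM (0.62, 0.02 to 1.24). No member had intervals on opposite sides of 0 in different populations. Of the 151 intervals, 3 lay below 0 and 5 above it. Among so many intervals at 95%, counting error alone is enough for a few to miss 0. These values are therefore not read as changes specific to a population.

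The wider pathway was read from a list of 55 other genes, of which 52 had at least 20 UMIs in all kept cells and Lin28a, Lin28b and Trim71, regulators of let-7 in embryonic cells, did not. Their median log2 ratio was 0.03, with 21 lower and 31 higher, and 2 passed 0.5, both higher: Mov10, a helicase bound to Argonaute (0.732 and 1.45 CPM, 0.98, 0.39 to 1.61), and Dcp1b, a decapping activator (2.00 and 2.89 CPM, 0.53, 0.15 to 0.92). Among all genes, 18.4% passed 0.5 on the higher side. Both were sparsely counted, Mov10 with 37 and 66 UMIs. The 3 lowest were Cnot7, a catalytic deadenylase (53.1 and 41.7 CPM, -0.35, -0.43 to -0.26), Papd4, a terminal nucleotidyltransferase that extends microRNA tails (-0.26, -0.39 to -0.14), and Cnot9, another subunit of the CCR4-NOT deadenylase (-0.25, -0.46 to -0.03). Cnot8, the close relative of Cnot7, was on the other side (9.16 and 12.01 CPM, 0.39, 0.21 to 0.57). Of the 13 deadenylation genes 9 were lower and 4 higher, and of the 10 decapping and decay genes 2 were lower and 8 higher, with medians of -0.04 and 0.13, against 35.7% of all genes lower and a median of 0.10. In HF-SC-like cells 7 of the 13 and 7 of the 10 were lower, with medians of -0.03 and -0.04, so the decapping and decay genes did not keep their side.

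The paralogs of the members gave values beside them. Tnrc6c, the third GW182 gene, was at 53.4 and 61.5 CPM in all kept cells (0.20, 0.13 to 0.28) and at 96.7 and 121 CPM in HF-SC-like cells (0.32, 0.11 to 0.53). In hair germ-like cells it was at 172 and 144 CPM (-0.26, -0.67 to 0.17), where Tnrc6b was on the higher side. Ago4, the fourth Argonaute, was at 10.8 and 11.2 CPM (0.06, -0.12 to 0.23), and at 12.3 and 10.3 CPM in HF-SC-like cells (-0.24, -0.93 to 0.43). Prkra, a Dicer1 partner related to Tarbp2, was at 11.7 and 14.4 CPM in all kept cells (0.30, 0.13 to 0.46).

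In HF-SC-like cells 51 of the list were tested, with a median of 0.03, and 5 passed 0.5, all higher, where 17.3% of all genes passed on that side. Among genes with at least 100 UMIs the highest were Snd1, a nuclease tied to silencing complexes (16.8 and 25.0 CPM, 0.57, 0.08 to 1.07), Ncbp2, the small cap-binding subunit (0.45, 0.10 to 0.82), and Khsrp, which binds some hairpins (0.39, -0.07 to 0.85). The lowest were Patl1, a decapping scaffold (-0.47, -1.04 to 0.08), Cnot7 (59.3 and 44.2 CPM, -0.42, -0.73 to -0.12) and Cnot6, a deadenylase subunit (74.4 and 56.9 CPM, -0.39, -0.66 to -0.12). Cnot7 was therefore among the lowest 3 in both readings, but HF-SC-like cells are part of all kept cells. In hair germ-like cells, where 43 were tested with a median of -0.15 and 15 passed 0.5 (34.6% of all genes did), the lowest were the Argonaute-loading chaperone Hsp90aa1 (1436 and 904 CPM, -0.67, -0.82 to -0.52), its cochaperone Ptges3 (-0.51, -0.91 to -0.09) and the helicase Ddx6 (-0.50, -0.997 to 0.02). The highest were Fxr1, an RNA-binding relative of Fmr1 (0.35, -0.22 to 0.98), Pan3, of the PAN2-PAN3 deadenylase (0.30, -0.34 to 1.01), and Pabpc1, the poly(A)-binding protein (704 and 855 CPM, 0.28, 0.09 to 0.47).

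**Figure D4:**
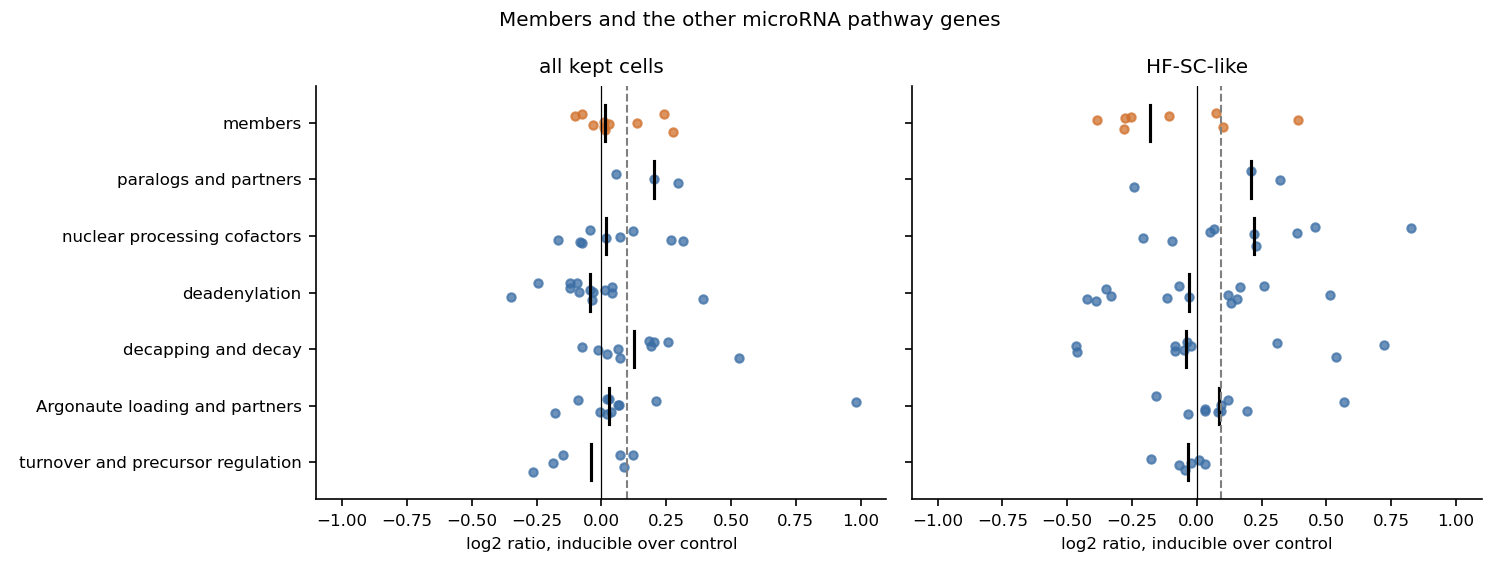
Log2 ratios of induced over control CPM (x axes) in all kept cells and HF-SC-like cells for the members (orange) and 6 groups of other microRNA pathway genes (blue), 1 point per gene with at least 20 UMIs. Black bars are group medians and the dashed line is the median of all tested genes, 0.10 and 0.09. The member median is 0.01 in all kept cells and -0.18 in HF-SC-like cells, and Mov10 is the point near 0.98.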

How the data were processed

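The authors aligned reads to mm10 with Cell Ranger (version 3.0.1 in the file headers) and deposited raw UMI counts per gene and barcode, without normalization. Members, gene lists and comparisons were chosen with earlier results of these data known. Genes were handled by identifier because 36 symbols repeat. Cells with more than 200 and fewer than 5000 genes and under 10% mitochondrial UMIs were kept, which left 86.6% of 4545 control barcodes (55465594 UMIs) and 85.1% of 4264 induced barcodes (49733560 UMIs). Doublets were not removed, since the automatic Scrublet threshold (scanpy 1.11.5) marked 4 and 5 barcodes.

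Libraries were integrated and clustered in Seurat 5.3.0 (R 4.3.3; 2000 variable genes without the members and pathway genes, 30 dimensions, resolution 0.8). A population was named "-like" from listed markers, with at least 3 raised 2-fold from at least 20 UMIs and no other class leading its top 10 genes, a rule set after the clusters were seen. Counts were summed per population and library (Python 3.11.15). Log2 ratios used a pseudocount of 0.5 UMIs, for genes whose UMIs in the pair of libraries came to 20 or more. Intervals are exact Poisson for CPM and exact conditional binomial for ratios, at 95%. The level 0.5 on the log2 scale (1.41-fold) describes size and is no test.

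All 10 members are named. Pathway genes are named if they are paralogs or partners, or were among the 3 highest or lowest with at least 100 UMIs in all kept, HF-SC-like or hair germ-like cells. Similar genes are the 5 with the highest r among those with at least 1000 UMIs. The ratio and its interval were tested on simulated counts. Alternatives covered the cell filter, doublets, scaling (edgeR 4.0.16 TMM, median of ratios), the UMI minimum, classes by marker UMIs, and the level. Coordinates are RefSeq GRCm38.p6.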

Additional observations from a re-analysis of the deposited data

How the results depend on the processing

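Of 422 alternative values over 48 results, 376 were counted as near the value given, 31 as moved and 15, all list medians, as changed in sign. A list median was counted as near when it kept its sign and lay within a range set by its genes' own ratios. That range is wide where genes are few, and for the members in HF-SC-like cells it was -0.39 to 0.39. A value counted as near can therefore still differ in size. Single members that were not called gave 278 of the 422, of which 265 were counted as near and 13 as moved. Within these 278, 40 changed sign, over 19 of 34 results. The cause was not tested except where fewer genes or cells are named. The member median in all kept cells (0.01) was -0.086 with median-of-ratios scaling, -0.074 with TMM and -0.019 with the same population mix, and the pathway median (0.03) was -0.073 and -0.061 under these scalings, which shifted all genes by up to -0.10. The HF-SC-like member median (-0.18) was -0.49 under 5% mitochondrial UMIs and 0.020 with classes by marker UMIs, and the pathway median there (0.03) was -0.059 and -0.049 with both scalings. Members past 0.5 in HF-SC-like cells (0) numbered 5 under 5% mitochondrial UMIs, 1 without an upper gene limit or a UMI minimum, and 2 with marker classes or a level of 0.32. The hair germ-like median (-0.47) was 1.04 under 5% mitochondrial UMIs and 0.38 with at least 100 UMIs, each with 1 gene left, and 0.11 with marker classes. The pathway median there (-0.15) was 0.087 under 5% mitochondrial UMIs. The 3 members past 0.5 there became 1 under 5% mitochondrial UMIs, without a gene limit, with marker classes or with cluster 10 added, 0 with at least 100 UMIs, 6 without a minimum and 5 at 0.32. The IFE basal-like median (0.07) was -0.013 with marker classes, and its 1 member past 0.5 became 0 there and with at least 100 UMIs. The dermal papilla-like median (-0.14) was 0.16 with marker classes and 0.043 with at least 100 UMIs (4 genes), and its 2 members became 1 with marker classes or mean CPM over cells and 0 with at least 100 UMIs. Marker classes are less sharp, since 1563 of 7564 cells scored within 25% of a second class. Among single members in all kept cells, Ago2 was -0.20 with median of ratios and -0.19 with TMM, and Tnrc6b was 0.18 with median of ratios and 0.43 by mean CPM over cells. Depth limits Xpo5 and Dgcr8 most. No paired analysis was possible because each group has 1 library and no replicate numbers, and for the same reason no replicate could be left out.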
